A study of Anguilla anguilla with 6 samples.

Results

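Forkhead box (FOX) transcription factors were examined in ovaries of European eels (Anguilla anguilla) that had received 4 weekly injections of gonadotropins, hormones of the pituitary that act on the gonads. The eels came from a commercial farm, and 4 animals are labelled responders and 2 non-responders. The labels do not say how a response was judged. Pieces from along the gonad were pooled within each animal, so every library is 1 animal. It holds oocytes together with the follicle, vessel and connective tissue around them. All animals were injected, so the comparison is between the outcomes of 1 treatment, with no untreated eels. The members were taken as every gene model of the authors' deposited table whose description holds the words forkhead box protein, which gave 78 of 45974 models. They carry 40 names from 17 lettered subfamilies. Of these names, 19 are shared by several models, 57 models in all, which can be duplicate genes or pieces of 1 transcript. The longest transcript of a model ranged from 149 to 4930 bases around a median of 1465.5, and 16 models were shorter than 500 bases.

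FOX proteins bind DNA through a shared winged-helix domain, called the forkhead, and differ in the sequences around it and in where they are made. In the vertebrate ovary FOXL2 keeps granulosa cells in their female identity. In mice FOXO3 holds primordial follicles dormant and is switched off when the insulin and PI3K pathway exports it from the nucleus. Other members are stored in the egg as maternal transcripts or pattern the embryo, and FOXM1 switches on genes of cell division.

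Expression is given as scaled counts, meaning read counts divided by a size factor for each library and averaged by the authors over the 4 responders and over the 2 non-responders. Values per library were not used here because their columns carry no name that matches a label, so means have no SD and it is not shown whether the animals of the groups overlap. The p-values are those of the authors' comparison, a log2 is that of the responder mean over the non-responder mean, and a model was called at an adjusted p under 0.05. Scaled counts per kilobase of longest transcript are given where levels of different models are compared. In a piece of ovary, fewer cells of a type and less RNA per cell cannot be told apart.

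No forkhead model was called per the authors' deposited table, against 0.183% of all 37072 models with a p. The smallest adjusted p of a member was 0.68, that of FOXQ1, and the adjusted p was 1 for the other 70 members with a p. An unadjusted p under 0.05 was given to 3 of these 71 members per the authors' deposited table, or 4.23%, against 3.67% of all models. Among members with a mean of at least 5 scaled counts it was 3 of 41, or 7.32%, against 5.61% of all models at that level, so the share of members lies near the background. Of the 3, 1 model, FOXQ1 (foxq1, g17293), had the higher mean in responders, where 2.07% of all models had such a p and a higher mean. The other two, FOXD1 (foxd1, g6759) and FOXD3 (fxd3a, g5482), had the lower mean in responders, where the share of all models was 1.59%. Of the 41 members, 20 lay above and 21 below a ratio of 1. The log2 values had a median of -0.04 and an interquartile range of -0.28 to 0.51. All 23266 models at that level had a median log2 of 0.01 and an interquartile range of -0.28 to 0.35. The summed means of all models differ between the groups, and bringing them to equal sums adds 0.11 to each log2 value. This puts 24 of the 41 members above and 17 below a ratio of 1, or 41.5% below. The same step puts 38.9% of all models at that level below, so the shift is not particular to the members. The rescaled median log2 was 0.07 for the members and 0.12 for all models.

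**Figure D1:**
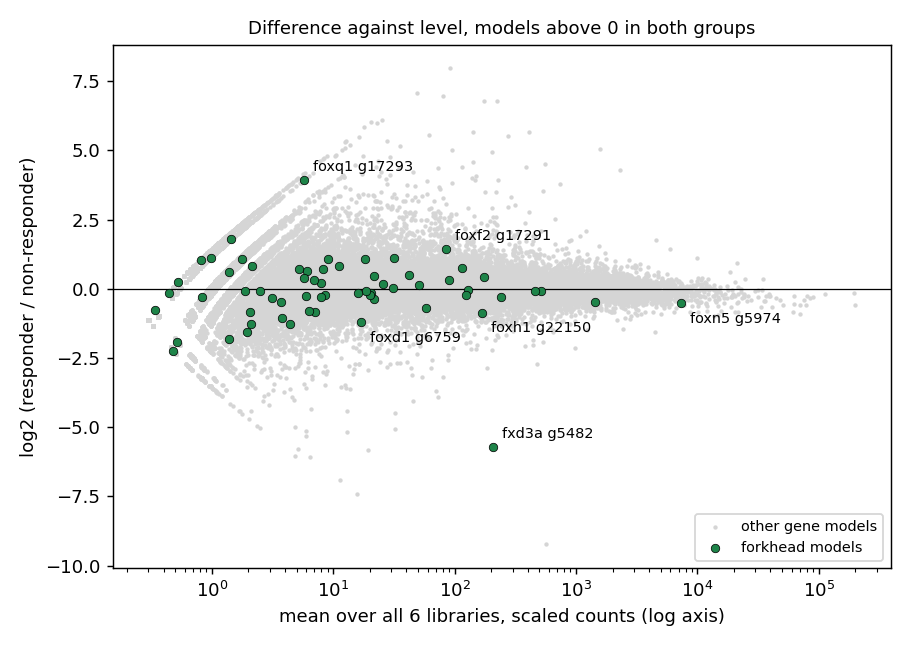
Log2 of the responder over the non-responder mean (vertical axis) against the mean over all 6 libraries in scaled counts (horizontal log axis), with 1 point per gene model above 0 in both groups and forkhead models in green. Most forkhead points lie within the cloud of all models; fxd3a (g5482) lies far below it at a log2 of -5.72, and foxq1 (g17293) at 3.94 lies on its upper edge, where non-responder means are near 0.

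Levels spanned from nothing to among the most abundant transcripts of the ovary. Of the 78 models, 7 were listed at 0 in both groups per the authors' deposited table, 30 had a mean above 0 and under 5 scaled counts, and 15 reached a mean of 50. A further 8 models were listed at 0 in non-responders only, none of them above 1.08 scaled counts in responders, and no model was listed at 0 in responders only. Fewer libraries stand behind the non-responder mean (2 against 4), so a value of 0 is reached more readily there. These counts are not read as a difference between the groups. The median mean of a member was 5.76 scaled counts, close to the 5.30 of all models. Together the members held 0.0877% of the summed responder means and 0.112% of the summed non-responder means. A single model, FOXN5, made up 62.0% of the forkhead sum in responders and 64.7% in non-responders. Per kilobase, FOXN5 stood 5.11 times above the next model, FOXK2 (g3520), in responders and 5.31 times above it in non-responders. Behind FOXK2, at 449 scaled counts per kilobase in responders against 624 in non-responders, the order in responders was FOXM1 at 138, FOXI2 at 96.1, FOXK1 (g9546) at 92.8, FOXJ3 at 91.4, FOXL2 at 87.0 and FOXF2 at 77.3 per kilobase. With no spread between animals, neighbours in that order cannot be said to differ. The order in non-responders differed most for FOXD3 (g5482), which was in place 20 of 20 in responders, against place 3 in non-responders. That order covers models with a mean of 20 or more and a transcript of 500 bases or more.

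**Figure D2:**
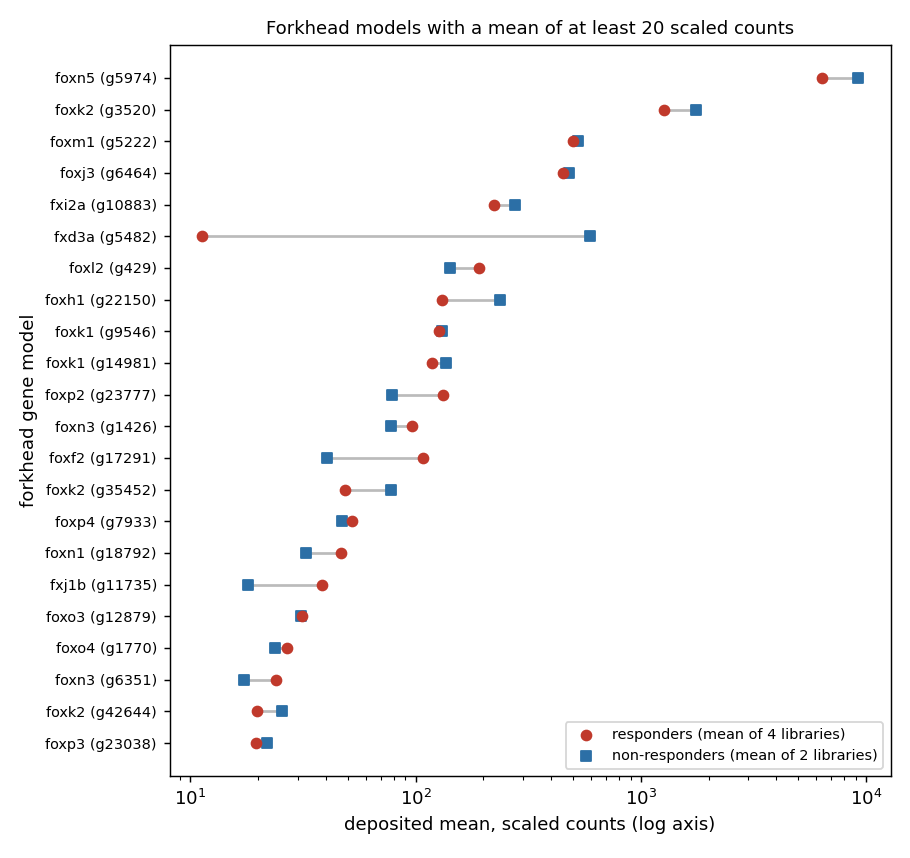
Deposited means in scaled counts (horizontal log axis) of the 22 forkhead models with a mean of at least 20 over all libraries, with responders as red circles and non-responders as blue squares, joined by a line for each model. The pair of means is close for most models. The widest gap is that of fxd3a (g5482), with 11.3 in responders against 594 in non-responders. The means of foxf2 (g17291) and fxj1b (g11735) were 2.68-fold and 2.14-fold higher in responders.

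FOXN5, FOXH1 and FOXI2, grouped here as maternal transcripts with their values known and not from a list, had lower means in responders. Their means were lower also with the groups rescaled to equal sums, and none was called. FOXN5 (foxn5, g5974), also named FOXR1 in mammals and known in zebrafish as a maternal gene needed for egg quality, had 6357 scaled counts in responders and 9187 in non-responders per the authors' deposited table (log2 -0.53, unadjusted p = 0.097). It ranked 190th of all 45974 models by mean. Its similarity to its best protein match was 0.474, the lowest of the 78, where the median was 0.744, so its name rests on the weakest match of the family. FOXH1 (foxh1, g22150), the DNA-binding partner of SMAD2 in Nodal and activin signalling and a maternal factor in zebrafish, had 131 scaled counts in responders and 238 in non-responders per the authors' deposited table (log2 -0.86, unadjusted p = 0.126). FOXI2 (fxi2a, g10883), which in Xenopus is a maternal activator of the ectoderm gene Foxi1e, had 222 in responders and 275 in non-responders per the authors' deposited table (log2 -0.31, unadjusted p = 0.552). Oocyte markers had lower means too: of 20 models of the oocyte list, which holds egg envelope proteins, ZAR1, GDF9 and the germ cell proteins DDX4 and DAZL, 19 were below a ratio of 1 (17 with both groups rescaled to equal sums). Rescaled, that is 85% below, against 38.9% of all models with a mean of 5 or more. With the deposited scaling the 20 models had a median log2 of -0.37. None was called per the authors' deposited table, where 0.292% of all models with a mean of 5 or more were called. The list summed to 451571 scaled counts in responders and 674376 in non-responders, and its part in the lower means of these factors was not tested.

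The Nodal and activin arm around FOXH1 had more models with the higher than with the lower mean in responders, although its sum was lower there. Of 19 models with a mean of 5 or more, FOXH1 included, 13 lay above and 6 below a ratio of 1. Of all models at that level, 50.6% lay above. With the groups rescaled to equal sums, 15 lay above and 4 below, or 21.1% below against 38.9% of all models. The 29 models of the list come from 12 genes, and models of the same gene can be pieces of 1 transcript and are then not independent. With the deposited scaling the 19 models had a median log2 of 0.22, and none of them was called per the authors' deposited table. The smallest p of the list belonged to DVR1 (dvr1, g817), the egg-stored TGF-beta ligand known as Vg1 in Xenopus, with 6961 scaled counts in responders and 12366 in non-responders per the authors' deposited table (log2 -0.83, unadjusted p = 0.00718, adjusted p = 0.63). Goosecoid (gsc, g2623), a homeobox gene that Nodal signals and FOXH1 switch on in the embryonic organizer, had 109 in responders and 28.3 in non-responders per the authors' deposited table (log2 1.94, unadjusted p = 0.0431, adjusted p = 1). The list summed to 9850 scaled counts in responders and 14952 in non-responders, and without DVR1 to 2889 in responders and 2587 in non-responders. The ligand thus had the lower mean in responders and the homeobox gene the higher one, with neither past the threshold.

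FOXD3 had the widest gap between the groups of any forkhead model above 5 scaled counts. FOXD3 is a repressor that keeps pluripotent cells and neural crest progenitors undifferentiated in the vertebrate embryo. The model fxd3a (g5482) had 11.3 scaled counts in responders and 594 in non-responders, 52.6-fold lower in responders per the authors' deposited table (log2 -5.72), yet its unadjusted p was 0.0494 and its adjusted p 1. A mean over 2 libraries does not show whether both non-responders were high or only 1. Of the 12895 models with a mean of 50 or more, 21 differed by more than 16-fold per the authors' deposited table. Of these, 19 had the higher mean in responders and 2 the lower one, FOXD3 and a model named ado (g7514). Among the 21 models, 5 were called and 13 had an unadjusted p under 0.05. Of all models with a mean of 5 or more, 0.292% were called and 5.61% had such a p. The p of the 21 models, which were chosen by their ratio, ran from 4.43e-12 to 0.487. A large ratio of means thus came with a small p for some of them and not for others. The other FOXD3 model (g2738) had 5.96 scaled counts in responders and 3.67 in non-responders per the authors' deposited table (log2 0.70, unadjusted p = 0.572). That difference was in the opposite direction, at a mean of 5.20 scaled counts, near the median of 5.76 of the members. Both models have the same best protein match, with a similarity of 0.8595 for g2738 and 0.7705 for g5482. The wide gap thus belongs to the model with the lower similarity to FOXD3.

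Genes that act beside FOXD3 showed no common direction. Of the neural crest and pigment cell list, 6 of 8 genes matched 13 models. Of these models 5 had a mean of 5 or more, 3 of them above and 2 below a ratio of 1. The whole list summed to 262 scaled counts in responders and 304 in non-responders per the authors' deposited table, mostly from SNAI2. The pigment enzyme DCT and 2 of the 3 SOX10 models were listed at 0 in both groups. SOX10 (sox10, g14367), the factor of migrating neural crest, had 27.7 scaled counts in responders and 8.53 in non-responders per the authors' deposited table (log2 1.70, unadjusted p = 0.0181). TFAP2A (ap2a, g1434), an early neural crest inducer, went the other way, with 8.89 in responders and 30.6 in non-responders per the authors' deposited table (log2 -1.79, unadjusted p = 0.0374). Transcription factors of the early embryo, a list written with earlier results of these data known, counted 13 models with a mean of 5 or more. Of them 5 lay above and 8 below a ratio of 1 (6 above and 7 below with the groups rescaled to equal sums). Rescaled, that is 53.8% below, against 38.9% of all models at that level. Of the 13 models 2 were called, against 0.292% of all models at that level. Per the authors' deposited table both had the higher mean in responders, SOX19A (sx19a, g1730) by a log2 of 3.77 (adjusted p = 5.1e-06) and SOX2 (sox2, g18599) by 3.38 (adjusted p = 0.034). The SOX19A model had 1073 scaled counts in responders and 78.4 in non-responders. For SOX2 the means were 22.7 in responders and only 2.19 in non-responders, so its ratio rests on few reads in the 2 non-responder libraries. The other SOX19A model (g3712), given after its values were seen, was more abundant, at 4133 scaled counts in responders and 4235 in non-responders per the authors' deposited table (log2 -0.04, or 0.08 with the groups rescaled to equal sums), and was not called. Below a ratio of 1 in that list, and named here after their values were seen, were POU5F1 (po5f1, g18055), a pluripotency factor, at 289 scaled counts in responders and 733 in non-responders, and NANOG (nanog, g1447) at 4882 in responders and 7640 in non-responders per the authors' deposited table, neither of them called.

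The remaining FOXD models were low. FOXD1 (foxd1, g6759), a factor of embryonic kidney stroma, had 11.9 scaled counts in responders and 27.1 in non-responders per the authors' deposited table (log2 -1.19, unadjusted p = 0.0434, adjusted p = 1). The 8 models of the FOXD subfamily included 2 listed at 0 in both groups.

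FOXL2, the granulosa cell factor, had higher means in responders in its main models without passing the test. The model g429 had 191 scaled counts in responders and 142.6 in non-responders per the authors' deposited table (log2 0.42, unadjusted p = 0.295). A shorter model (g7156) had 13.1 in responders and 7.36 in non-responders per the authors' deposited table (log2 0.84, unadjusted p = 0.352). The model g22035 was at 1.84 in responders and 1.96 in non-responders per the authors' deposited table. The list of FOXL2 partners and granulosa or theca genes, FOXL2 included, had 13 models with a mean of 5 or more, 9 above and 4 below a ratio of 1. The median log2 was 0.15 and none was called per the authors' deposited table. CYP17A1, which makes androgens in theca cells, held its smallest p-values. The CYP17A1 model g10692 (cp17a) had 556 scaled counts in responders and 222 in non-responders per the authors' deposited table (log2 1.33, unadjusted p = 0.0613). The model g22995 had 392.2 in responders and 179 in non-responders (log2 1.13, unadjusted p = 0.0826) per the authors' deposited table. CYP19A1 (cp19a), the aromatase gene that FOXL2 switches on in vertebrate ovaries, was named after its values were seen and had lower means in responders in both models. Per the authors' deposited table g9348 had 11.9 scaled counts in responders and 23.0 in non-responders, and g9349 had 21.2 in responders and 24.3 in non-responders, with neither called. FOXL2 (g429) and aromatase thus lay on opposite sides of a ratio of 1, without a call for either.

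The FOXO factors, which restrain growth when insulin signals are low, were split by gene, with near-equal sums for FOXO3 and FOXO4 and a lower sum in responders for FOXO1, and none was called. FOXO3 (foxo3, g12879) had 31.3 scaled counts in responders and 31.0 in non-responders per the authors' deposited table (log2 0.01, unadjusted p = 0.945). FOXO4 (foxo4), a close relative, had 2 models of similar length at 27.0 in responders and 23.6 in non-responders (g1770, log2 0.19) and at 18.8 in responders and 22.2 in non-responders (g12237, log2 -0.24) per the authors' deposited table. Added up, the FOXO3 models gave 32.0 scaled counts in both groups and the FOXO4 models 45.8 in responders and 45.9 in non-responders. FOXO1 (foxo1), which acts in granulosa cells of mice, was split over 5 models of 383 to 1012 bases that summed to 19.7 scaled counts in responders and 28.7 in non-responders. The 4 FOXO1 models above 0 in both groups all lay below a ratio of 1 per the authors' deposited table, at log2 -0.21 (g1734), -0.81 (g15212), -1.04 (g27497) and -0.48 (g39259), and the smallest of their unadjusted p-values was 0.343. If these are pieces of 1 transcript, they are not independent of each other. FOXO6 (foxo6, g20684) was near the detection limit, at 1.89 scaled counts in responders and 0.547 in non-responders per the authors' deposited table.

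The insulin and PI3K arm that controls FOXO proteins was measured by 70 models with a mean of 5 or more. Of these 30 lay above and 40 below a ratio of 1. Rescaled to equal sums of the groups, 34 lay above and 36 below, or 51.4% below against 38.9% of all models at that level. With the deposited scaling the list had a median log2 of -0.13, and none was called per the authors' deposited table. An unadjusted p under 0.05 was given to 3 of the 70 models, against 5.61% of all models at that level. The insulin receptor, which starts this cascade, was split over many models, and the one with the smallest p (insr, g18242), of 1459 bases, had 73.4 scaled counts in responders and 147 in non-responders per the authors' deposited table (log2 -1.003, unadjusted p = 0.00923, adjusted p = 0.71). The longest insr model (g19979, 5656 bases) had 100.7 in responders and 92.8 in non-responders (log2 0.12), and g13574 had 75.03 in responders and 52.5 in non-responders (log2 0.52), both named after their values were seen, per the authors' deposited table. The other insr models with a mean of 5 or more lay below a ratio of 1, with none called. They were g40102 (log2 -1.22), g29250 (-0.85), g42499 (-0.68) and g33235 (-0.36). A short model of the PI3K regulatory subunit gamma (p55g, g33192) had 6.39 scaled counts in responders and 20.04 in non-responders per the authors' deposited table (log2 -1.65, unadjusted p = 0.0175). The kinase SGK1, which like AKT phosphorylates FOXO3, had a short model (sgk1, g27848), named after its values were seen, at 12.4 in responders and 1.02 in non-responders per the authors' deposited table (log2 3.61, unadjusted p = 0.0219). The far more abundant SGK1 model g13895 had 818 in responders and 661 in non-responders per the authors' deposited table (log2 0.31, unadjusted p = 0.392). Genes known as FOXO targets in mammals had 13 of 25 models above and 12 below a ratio of 1, a median log2 of 0.02 and none called. With the groups rescaled to equal sums, 18 lay above and 7 below. That is 28% below, against 38.9% of all models with a mean of 5 or more. TXNIP (txnip, g10997), an inhibitor of glucose uptake, had 238 scaled counts in responders and 455 in non-responders per the authors' deposited table (log2 -0.94, unadjusted p = 0.00539, adjusted p = 0.56). The muscle-wasting ubiquitin ligase FBXO32 (fbx32, g8686) had 198 in responders and 122 in non-responders (log2 0.70, unadjusted p = 0.0747) per the authors' deposited table. FOXO proteins are regulated mainly by phosphorylation and nuclear export, which transcript counts do not measure.

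FOXM1 (foxm1, g5222), the factor of the G2 and M phase genes, came after FOXN5 and FOXK2 in level per kilobase in responders. It had 502 scaled counts in responders and 529 in non-responders per the authors' deposited table (log2 -0.08, or 0.04 with the groups rescaled to equal sums, unadjusted p = 0.861). A second model (g16233) had 7.34 in responders and 8.91 in non-responders per the authors' deposited table (log2 -0.28). Its known mammalian targets had lower means in responders more often than not: 23 of 30 models with a mean of 5 or more lay below and 7 above a ratio of 1 (20 below and 10 above with the groups rescaled to equal sums). Rescaled, that is 66.7% below, against 38.9% of all models at that level. With the deposited scaling the 30 models had a median log2 of -0.28 and none was called. Of the 30, 5 had an unadjusted p under 0.05, all lower, against 5.61% of all models at that level. The 31 models of the list come from 14 genes, and the NEK2 models g35879 and g16959 are among the 5. Models of the same gene can be pieces of 1 transcript and are then not independent. The centrosomal kinase NEK2 held the smallest p-values. Its model g35879 (nek2) had 653 scaled counts in responders and 1120 in non-responders per the authors' deposited table (log2 -0.78, unadjusted p = 0.0197). The model g16959 (nek2) had 1230 in responders and 2004 in non-responders (log2 -0.70, unadjusted p = 0.0326) per the authors' deposited table. The longest NEK2 model (g16958, 1755 bases), named after its values were seen, had 749 in responders and 799 in non-responders per the authors' deposited table (log2 -0.09, unadjusted p = 0.729). Oocytes store many of these transcripts, and the oocyte list had a median log2 of -0.37; its part in the lower means was not tested.

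**Figure D3:**
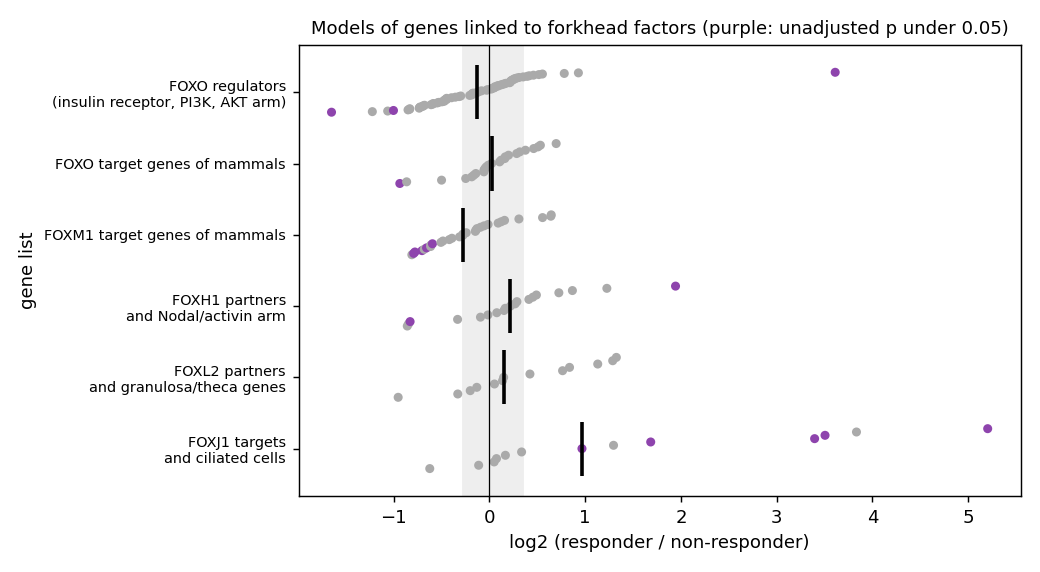
Log2 of the responder over the non-responder mean (horizontal axis) for gene models with a mean of at least 5 in 6 lists tied to forkhead factors, with 1 point per model, purple where the unadjusted p is under 0.05, and a black bar at each list's median. The grey band is the middle 50% of all models at that level; the median is -0.28 for FOXM1 targets and 0.97 for FOXJ1 targets and ciliated cells.

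FOXJ1 is the master factor of motile cilia in vertebrates. Both models of it above 0 had the higher mean in responders, without a call. The model fxj1b (g11735) had 38.4 scaled counts in responders and 17.9 in non-responders per the authors' deposited table (log2 1.10, unadjusted p = 0.110). For fxj1a (g7086) the means were 10.999 in responders and 5.24 in non-responders per the authors' deposited table (log2 1.07, unadjusted p = 0.398). The model foxj1 (g1153) was listed at 0 in both groups. Of the list of FOXJ1 targets and ciliated cell genes, 12 of 15 genes matched 34 models. Of these, 6 were listed at 0 in both groups and 13 had a mean of 5 or more. Of those 13, 11 lay above and 2 below a ratio of 1, and their median log2 was 0.97. An unadjusted p under 0.05 was given to 5 of the 13, all higher, against 5.61% of all models at that level, and none was called per the authors' deposited table. Tektin-1 (tekt1, g9224), a filament protein inside ciliary microtubules, had 255 scaled counts in responders and 22.5 in non-responders per the authors' deposited table (log2 3.51, unadjusted p = 0.00112, adjusted p = 0.25). The axonemal dynein heavy chain DNAH9 (dyh9, g3776), a motor of the outer arm of the cilium, had 20.2 in responders and 0.547 in non-responders per the authors' deposited table (unadjusted p = 0.00324, adjusted p = 0.45). That non-responder mean is about 1 read over the 2 libraries. The other DNAH9 model (g24655) was listed at 0 in responders and had 0.941 scaled counts in non-responders. The most abundant model of the list, CCDC40 (ccd40, g11559), lay near a ratio of 1, with 373 in responders and 355 in non-responders (log2 0.07). Another CCDC40 model (g11560) had 338 in responders and 302 in non-responders (log2 0.17). Both are named after their values were seen, per the authors' deposited table. The list summed to 1707 scaled counts in responders and 1043 in non-responders.

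FOXF2, FOXQ1 and FOXC1 are neighbours in vertebrate genomes, and models of these names in the authors' deposited table have identifiers within 1 short run, from g17290 to g17293; positions in the genome were not used here. FOXF2 (foxf2, g17291), a factor of connective tissue and vessel-associated cells, had 108 scaled counts in responders and 40.4 in non-responders (log2 1.42, unadjusted p = 0.071) per the authors' deposited table. FOXQ1 (foxq1, g17293), best known from epithelia, had 8.37 in responders and 0.547 in non-responders (unadjusted p = 0.00815, adjusted p = 0.68) per the authors' deposited table. Its non-responder mean is the second lowest value above 0 that occurs in that column, about 1 read over the 2 libraries. The ratio of 15.3 therefore has a 95% interval from 2.76 to 671. That interval was computed from scaled counts rounded to whole numbers with an exact binomial method and covers counting error only. The unnamed model between them (g17292), chosen here after its values were seen, had 120 in responders and 33.2 in non-responders (log2 1.86, unadjusted p = 0.0385) per the authors' deposited table. The other models of these names, given here after their values were seen, were low. FOXC1 (fxc1b, g17290), a factor of mesoderm and vessels, had 2.88 scaled counts in responders and 3.60 in non-responders per the authors' deposited table, and the other model of that name (g9016) had 9.40 in responders and 5.72 in non-responders (log2 0.72, unadjusted p = 0.735). A second pair named foxq1 (g3441) and foxf2 (g3442) was at 0.969 scaled counts in responders and listed at 0 in non-responders for FOXQ1, and listed at 0 in both groups for FOXF2.

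Marker lists of further cell types were also followed. With the deposited scaling, smooth muscle had 8 of 10 models above a ratio of 1 and a median log2 of 0.14, and endothelium 4 of 8 and -0.10 (0.01 with the groups rescaled to equal sums). Leukocytes had 5 of 7 models above and a median log2 of 0.50, adipocytes 6 of 7 and 0.92, and erythrocytes 3 of 6 and 0.12. None of these models was called per the authors' deposited table. Summed over its list, smooth muscle had 3538 scaled counts in responders and 3603 in non-responders, and endothelium 170 in responders and 242 in non-responders. Leukocytes had 112 in responders and 84.6 in non-responders, adipocytes 17981 in responders and 18337 in non-responders, and erythrocytes 2087 in responders and 2018 in non-responders. With the deposited scaling, the median of smooth muscle and of adipocytes thus lay above 0 while their sums were lower in responders. Each of these sums rests mostly on 1 model. Without MYL9 (myl9, g11086) the smooth muscle list summed to 799 scaled counts in responders and 733 in non-responders, and without FABP4 (fabp4, g3192) the adipocyte list summed to 335 in responders and 141 in non-responders. The part of these cell types in the FOX values was not tested.

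None of the FOXK, FOXN, FOXP and other FOXJ factors was called. FOXK2 (foxk2, g3520), which with FOXK1 represses autophagy genes in mammals, was the second most abundant model, with 1263 scaled counts in responders and 1756 in non-responders per the authors' deposited table (log2 -0.47, unadjusted p = 0.132). A short FOXK2 model of 247 bases (g35452) had 48.4 in responders and 78.0 in non-responders per the authors' deposited table (log2 -0.69, unadjusted p = 0.10002). FOXK1 (foxk1) had 127 in responders and 131 in non-responders for g9546 (log2 -0.04) and 118 in responders and 137 in non-responders for g14981 (log2 -0.21) per the authors' deposited table. All 6 FOXK models with a mean of at least 5 lay below a ratio of 1, or 5 of 6 with the groups rescaled to equal sums, where g9546 was above. These models carry only the names FOXK1 and FOXK2, and FOXK2 models ranged from 188 to 2813 bases. If models of 1 name are pieces of 1 transcript, they are not independent of each other. The sum over the subfamily's 8 models was 1595 scaled counts in responders and 2150 in non-responders. FOXJ3 (foxj3, g6464), needed for meiosis in male mice, had 451 in responders and 479 in non-responders per the authors' deposited table (log2 -0.09, or 0.03 with the groups rescaled to equal sums, unadjusted p = 0.788). FOXN3 (foxn3, g1426), a checkpoint suppressor that represses transcription, had 96.2 in responders and 77.7 in non-responders (log2 0.31, unadjusted p = 0.464) per the authors' deposited table. All 4 models of that name lay above a ratio of 1, but g6352 and g4052 had means of only 2.14 and 1.38 scaled counts. The FOXN model with the highest log2 at a mean of 5 or more was FOXN2 (foxn2, g10500), named after its values were seen, with 22.3 in responders and 10.6 in non-responders per the authors' deposited table (log2 1.07, unadjusted p = 0.123). FOXP2 (foxp2, g23777), best known for its role in the brain, had 132 in responders and 78.5 in non-responders per the authors' deposited table (log2 0.75, unadjusted p = 0.112). Its relative FOXP4 (foxp4, g7933) had 52.1 in responders and 47.2 in non-responders (log2 0.14, unadjusted p = 0.912) per the authors' deposited table.

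**Figure D4:**
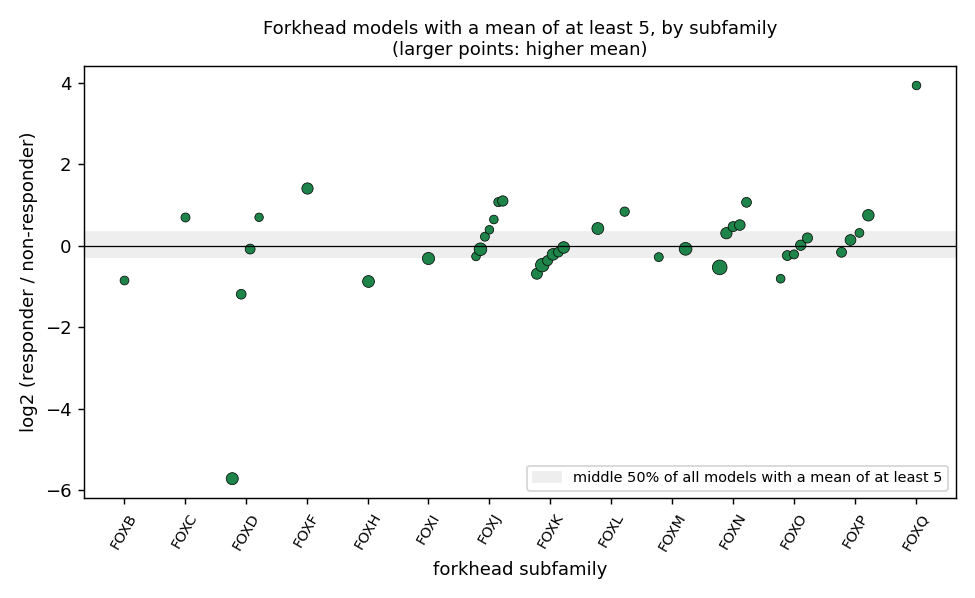
Log2 of the responder over the non-responder mean (vertical axis) for the 41 forkhead models with a mean of at least 5, grouped by subfamily along the horizontal axis, with larger points for higher means and the middle 50% of all models at that level as a grey band. All 6 FOXK points lie below 0 (5 with the groups rescaled to equal sums) and both FOXL points above it, whereas FOXD, FOXJ, FOXN, FOXO and FOXP points fall on both sides.

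Among subfamilies that pattern embryonic organs, the FOXA and FOXE models were at or near the detection limit, and the FOXB models were low. The highest FOXB model, FOXB1 (foxb1, g7886) of the developing brain, had 5.60 scaled counts in responders and 9.95 in non-responders per the authors' deposited table (log2 -0.83, unadjusted p = 0.307). The highest FOXA model (fxa1a, g17235), of the endoderm pioneer factor FOXA1, had 1.19 in responders and 3.52 in non-responders per the authors' deposited table. For the thyroid factor FOXE1 (foxe1, g9522) the highest means were 0.978 in responders and 0.471 in non-responders per the authors' deposited table. No ratio is read from the FOXA and FOXE values. The rule for naming left out 38 members, FOXN2 (g10500) among them, of which 6 were listed at 0 in both groups and 12 had a mean of at least 5. Their highest mean was 42.0 scaled counts, and their smallest unadjusted p per the authors' deposited table was 0.123.

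Among the 15 members with a mean of at least 50, 10 lay below and 5 above a ratio of 1, or 66.7% below, against 51.3% of all models at that level. With the groups rescaled to equal sums it was 7 below and 8 above, or 46.7% below against 38.8% of all models. Of these 15, 13 differed by less than 2-fold per the authors' deposited table, FOXD3 (g5482) and FOXF2 (g17291) being the exceptions. The forkhead sum was 10251 scaled counts in responders and 14192 in non-responders, and without FOXN5 and FOXD3 (g5482) it was 3883 in responders and 4412 in non-responders.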

How the data were processed

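Ovarian mRNA of 6 eels was sequenced, 1 library per animal, per the labels' protocols. The signal values the authors deposited are base means per the file headers, that is read counts divided by size factors and averaged over the libraries of a condition or over all 6. The authors deposited the fold as the ratio of condition means, a p-value and an adjusted p-value for each model, and, as a fraction, the similarity to its best protein match. The title of the authors' table credits DESeq. The sources used here do not give its version, the aligner, the counter or the genome build. The mean over all libraries equals the condition means weighted 2 to 4, with a largest deviation of 3.5e-10, which identifies the conditions by their numbers of libraries. The 6 columns per library match no label and were not used, so depth per library, spread and leave-one-out fits were not analysed here, and the deposited p takes the place of a test of counts.

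Computed here were log2 ratios, per-kilobase values, counts, medians and Benjamini-Hochberg re-adjustments (Python 3.11.15, pandas 2.3.3). The re-adjustment was checked on simulated data. The members, lists and rules were chosen with earlier results of these data known. Named are members with an unadjusted p under 0.05 or a mean of at least 50, all models of FOXL2, FOXO, FOXH1, FOXM1, FOXD3 and FOXJ1, the highest model of each other subfamily, and the called models and 2 smallest p-values of each pathway list. The highest model of 1 subfamily is not reported here. List genes were matched by deposited name.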

Additional observations from a re-analysis of the deposited data

How the results depend on the processing

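The count of called forkhead models was 0 under every choice tried: an adjusted p under 0.1, the deposited p re-adjusted by Benjamini-Hochberg over models whose mean is 5 or more (smallest adjusted p of a member 0.433) or of at least 20 (0.783), a wider wording of the description, and, added after the data were seen, transcripts of at least 500 bases. The unadjusted count was 3. The median log2 of -0.04 was 0.069 with the groups rescaled to equal sums, where all models with a mean of at least 5 had 0.118. The median of the members was -0.059 at a mean of at least 20, -0.086 with no minimum, and 0.013 with 1 model per name. The last was an alternative added after the data were seen. A pseudocount of 1 or 5 left the median at -0.04. Of 37 single members, 4 changed sign with the groups rescaled to equal sums, which by construction adds 0.11; the other alternatives for single members cannot change a sign. Rescaled, foxm1 (g5222) had a log2 of 0.036, foxj3 (g6464) of 0.025, foxk1 (g9546) of 0.069 and foxl2 (g22035) of 0.021.

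Other size factors and leaving out a library were not run, since they need values per library that match a label. No paired analysis was possible because the columns used are group means with no replicate. With 2 non-responders behind each mean, the group means used here do not show whether 1 animal set the FOXD3 value.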

Other observations

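Gene models that name a forkhead factor in other words, outside the wording used to choose the members, numbered 3 and were near the detection limit. FOXA2, the endoderm and liver factor listed under its older name hepatocyte nuclear factor 3-beta, had 0.763 scaled counts in responders and 0.547 in non-responders for g12607, and 0.824 in responders with 0 listed in non-responders for g17905, per the authors' deposited table. The model g42130, described as forkhead box O4 without a name, had 0.217 scaled counts in responders and was listed at 0 in non-responders per the authors' deposited table. None of the 3 was called.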
